A study of Homo sapiens with 7 samples.

Results

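The genes described here encode 9 factors that turn a licensed replication origin into an active one: CDC45, the 4 GINS subunits (GINS1, GINS2, GINS3 and GINS4), the kinase CDC7 and its activator DBF4, and the loading factors RECQL4 and TICRR. They were chosen by name, with earlier results of these data known. They are 9 of the 19962 protein-coding genes on chromosomes 1 to 22 and X. The question was where the retinoblastoma protein (Rb) was found at their promoters, and how this differed between cells with and without a CDK4/6 inhibitor. A promoter began 2000 bp before any annotated transcription start site (TSS) of the gene and ended 500 bp after it. Peaks elsewhere within the 9 genes were also sought.

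Rb was mapped by CUT&RUN, in which an antibody directs a nuclease to cut out the DNA around a bound protein. The cells were ZR-75-1, a breast cancer cell line that expresses the oestrogen receptor. Parental cells received DMSO (2 libraries) or 500 nM palbociclib, a CDK4/6 inhibitor (2 libraries), for 4 days, and were profiled with the Rb antibody. RB1-knockout (RB1 KO) cells gave 1 Rb library with DMSO and 1 with palbociclib. A non-targeting IgG2a antibody gave 1 library of parental cells with palbociclib. The study made its RB1 KO cells by Cas9 editing and single-cell sorting into clones, and the labels do not say which clone was used. Per the study's methods the palbociclib experiment was carried out once, and the 2 libraries of each parental arm are biological replicates.

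At an origin, the MCM ring is loaded in an inactive form and is switched on when CDC45 and GINS join it to make the replicative helicase. The kinase formed by CDC7 and DBF4 (DDK) phosphorylates MCM subunits, which opens the way for CDC45. TICRR, also called Treslin, and RECQL4 act in the same step, helping to bring CDC45 and GINS to the ring. Unphosphorylated Rb binds E2F transcription factors at the promoters of many S phase genes and represses them, and CDK4/6 activity relieves that repression.

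Sites under the palbociclib peaks are shown for 7 of the 9 members, chosen to illustrate the motifs searched. GINS4 and RECQL4 also held matches inside both peaks, which are described without letters: CCAAT in GINS4 (1) and RECQL4 (2), and GGGCGG in GINS4 (4) and RECQL4 (10). All sequences are from GRCh38 (hg38), written 5′ to 3′ on the strand of the gene, with the motif in capitals. The first group carries an E2F match, searched on both strands as TTTCCCGC, TTTGGCGC, TTTCGCGC or TTTGCCGC. A capital stretch in the opposite orientation reads as the reverse complement.
CDC7, chr1:91501033-91501062, plus strand: gtgcagttcctTTTCCCGCcccccttcgga
GINS1, chr20:25407667-25407696, plus strand: agctttgttcgGCGCCAAAgcgcggagcgg
GINS2, chr16:85688967-85688996, minus strand: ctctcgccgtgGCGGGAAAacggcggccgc
GINS3, chr16:58392455-58392484, plus strand: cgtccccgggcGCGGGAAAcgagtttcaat
The second group holds other motifs: the shorter E2F core GGCGGGA in CDC45 and DBF4, the cell cycle homology region (CHR) TTTGAA in DBF4, and the NF-Y box CCAAT in TICRR.
CDC45, chr22:19479887-19479916, plus strand: agccgtgatttGGCGGGAgtcttgaccgcc
DBF4 E2F core, chr7:87876133-87876162, plus strand: caaacctagaaGGCGGGAataaccctggtg
DBF4 CHR, chr7:87876478-87876507, plus strand: gcgtgacgcgttTTCAAAtcttcaaccgcc
TICRR, chr15:89575369-89575468, plus strand: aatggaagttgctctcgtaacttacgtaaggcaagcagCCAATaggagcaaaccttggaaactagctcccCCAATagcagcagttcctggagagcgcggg

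Matches were located within 350 bp of the canonical TSS, and those inside the peaks of both palbociclib libraries were counted. The E2F sequences occurred 5 times, in 4 members. CDC7 held 2 of them, 193 and 227 bp downstream of its TSS, and GINS1, GINS2 and GINS3 held 1 each. The GINS1 match began 5 bp downstream of the canonical TSS, the GINS3 match 5 bp upstream and the GINS2 match 31 bp upstream. The core GGCGGGA, which can overlap the longer motif, was searched after the data had been seen. It occurred 7 times, in CDC7 (4 times), CDC45, GINS2 and DBF4. TICRR and CDC45 each held 4 CCAAT boxes, and no other member more than 2. The CRE sequence TGACGTCA and the ETS sequence CCGGAAGT had no such match in any of the 9.

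For comparison with other promoters, windows of equal length were counted. A match had to lie wholly within the window. Each gene had 1 palbociclib summit, which in the members was that of the library with the higher fold enrichment. Within 100 bp of that summit, 1 of 9 members (GINS2) held an E2F match, beside 5.99% of 5792 promoter summit windows. In the 300 bases from 250 bp before the canonical TSS to 50 bp after it, 3 of 9 (GINS1, GINS2 and GINS3) held one, beside 4.37% of all 19962 such windows. The core was in 1 summit window (GINS2) against 30.8%, and in 4 TSS windows (CDC45, GINS2, GINS4 and CDC7) against 21.3%. CCAAT was in 3 summit windows (GINS2, GINS4 and TICRR) against 26.3%, and in 6 TSS windows against 36.0%. The CHR sequence was in no summit window, against 3.23% of all, and in the TSS window of DBF4 alone among the members, against 11.5%. GGGCGG, bound by SP and KLF factors, was in 6 summit windows against 70.1% and in 8 TSS windows against 61.3%. The CRE sequence was in no member window, against 1.24% of all summit windows and 2.69% of all TSS windows. The ETS sequence was in no summit window of a member, against 3.26%. It was in the TSS window of GINS3 alone among the members, against 6.16%. The GC content of the summit windows had a median of 65.2% in the members (52.2 to 77.6%) and 70.6% in all. The summit counts depend on which replicate gave the summit. Around the other replicate's summit at the canonical TSS, GINS1 would hold an E2F match, and CDC45 and CDC7 the core. GINS2 would keep both. CCAAT would be gained at CDC45 and GINS1 and kept at GINS2, GINS4 and TICRR, while GINS1 would lose GGGCGG. These are matches of letters, and no test was run on 9 genes.

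The deposited lists hold peaks, not read totals, so sequencing depth as such is not known. There were 996 and 816 peaks with DMSO, and 8399 and 8256 with palbociclib. The fold enrichment of a peak is the authors' ratio of fragment pileup at the summit to the local background, which MACS2 takes after adding 1 to each. From this ratio and the peak's p-value the number of fragments over the summit was recovered. The lowest background in a list, a guide to its relative depth, ran from 0.465 to 0.571 fragments in the 4 parental Rb lists. The smallest pileup called on a chromosome was 6 fragments in the DMSO lists and 5 in the palbociclib lists. A promoter without a peak is therefore one below the calling limit, not one measured at 0.

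Every one of the 9 promoters had an Rb peak in both palbociclib libraries. The background share was 34.9% of all protein-coding genes. In DMSO replicate 1 a peak was called at 4 members, GINS2, GINS4, CDC7 and DBF4, beside 5.22% of all genes. In DMSO replicate 2 it was called at 2, CDC45 and GINS2, beside 4.28%. GINS2 was thus the 1 member with a peak in both DMSO libraries, beside 2.91% of genes. Another 4 members, CDC45, GINS4, CDC7 and DBF4, had a peak in both palbociclib libraries and in exactly 1 DMSO library (3.66% of genes). The remaining 4, GINS1, GINS3, RECQL4 and TICRR, had a peak in both palbociclib libraries and in neither DMSO library (28.4% of genes). The DMSO calls depended on the library: with replicate 2 alone 7 members had a palbociclib peak and no DMSO peak, and with replicate 1 alone 5 did. With only the 816 best peaks of every parental library, the palbociclib count fell from 9 to 3 (GINS4, CDC7 and DBF4), and no member was left with a peak in both DMSO lists or gained in palbociclib alone. The share of all genes under that cut was not counted, and the 34.9% belongs to the full lists.

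**Figure D1:**
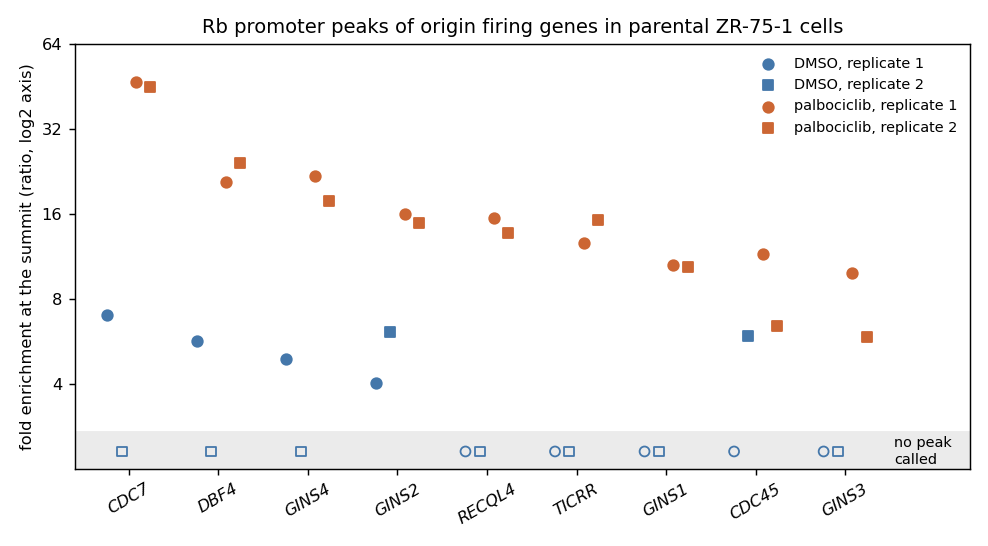
Fold enrichment of the highest promoter peak (ratio, log2 axis) for each member in the 4 parental Rb libraries; filled points are called peaks and open points in the grey band are promoters with no peak in that library. The 18 palbociclib values run from 5.88 at GINS3 to 46.8 at CDC7, and the DMSO points that exist lie between 4.03 and 6.99.

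In the RB1 KO libraries no member had a peak at its promoter or elsewhere in the gene. Across all genes, 0.0100% had a promoter peak in either RB1 KO list, that is 2 genes. The RB1 KO lists held 65 and 51 peaks, of which 4 and 5 lay on chromosomes 1 to 22 and X. At 33 peaks on other contigs that all 6 Rb lists shared, the median pileup in RB1 KO was 1.09 (DMSO) and 0.908 (palbociclib) times the mean of the parental libraries. The IgG2a list held 2648 peaks and none at a member, beside 1.95% of all genes with an IgG2a promoter peak. With 1 library each, these groups have no replicate check. The Rb peaks were called against matched IgG controls, so the Rb and IgG2a lists may not be independent.

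CDC7, the catalytic subunit of DDK (ENSG00000097046.13, chromosome 1, 91500851 to 91525764, plus strand), had the highest fold enrichment of the 9. Its values were 46.8 and 45.2 in the palbociclib libraries, a mean of 46.0 ± 1.15 (SD, n = 2), and 6.99 in DMSO replicate 1, with no peak in DMSO replicate 2. Both palbociclib values were more than 6 times the single DMSO value (6.46 and 6.69 times), and no test was possible with 1 DMSO value. Among the 6972 genes with a promoter peak in both palbociclib lists CDC7 ranked 67, within the top 0.961%. The peaks, at 91500597 to 91501684 and 91500584 to 91501448, were 1088 and 865 bp wide, against 183 bp in DMSO replicate 1. Their summits lay in the 5′ UTR, 97 and 62 bp downstream of the TSS, and the DMSO summit lay 95 bp downstream. The E2F match at 193 bp was thus inside both palbociclib peaks and downstream of both summits. It crossed the edge of the window of 100 bp around the summit used, so it was not counted there.

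DBF4, a regulatory subunit that activates CDC7 (ENSG00000006634.8, chromosome 7, 87876216 to 87909553, plus strand), followed with 20.8 and 24.3 under palbociclib (22.5 ± 2.48). DMSO replicate 1 gave 5.68 and DMSO replicate 2 no peak, so the palbociclib values were 3.66 and 4.28 times the one DMSO value. The palbociclib peaks measured 1065 and 1140 bp, from 87875737 to 87876801 and to 87876876, and the DMSO peak 181 bp. All 3 summits lay upstream of the canonical TSS, by 208, 243 and 252 bp, yet within 69 bp of the start of another DBF4 transcript. The same peaks covered the promoter of SLC25A40, a mitochondrial carrier gene, so the signal cannot be assigned to either gene alone.

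The GINS subunits form 1 complex, but their promoters differed in height. GINS4 (ENSG00000147536.12, chromosome 8, 41529218 to 41545030, plus strand) had 21.9 and 17.7 in the palbociclib libraries (19.8 ± 2.94), 4.90 in DMSO replicate 1 and no peak in DMSO replicate 2. The palbociclib values were 3.61 and 4.46 times the DMSO value. Its palbociclib peaks were 719 and 748 bp wide and its DMSO peak 153 bp. The summits sat 73, 89 and 75 bp upstream of the canonical TSS, in that order.

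GINS2 (ENSG00000131153.9, chromosome 16, 85676198 to 85690073, minus strand) allowed the only comparison with both groups complete. Its fold enrichment was 4.03 and 6.12 in the DMSO libraries and 16.0 and 14.9 in the palbociclib libraries. The groups did not overlap: the mean was 5.07 ± 1.48 (SD, n = 2) with DMSO and 15.5 ± 0.774 (n = 2) with palbociclib. The difference was 1.64 on the log2 scale, or 3.11-fold, with an exact two-sided permutation p of 0.333, the smallest that 2 libraries against 2 can give. Non-overlap in this direction was found in 100% of the 580 genes with a promoter peak in all 4 parental lists. Their median difference was 1.88 (log2, 3.67-fold), and GINS2 ranked 433 among the 580. In both DMSO lists the peak ran from 85688960 to 85689114, a width of 155 bp. Under palbociclib it was 777 and 703 bp wide (740 ± 52.3), 585 bp more on average (exact permutation p = 0.333, again the smallest possible). All 580 genes, 100%, had wider peaks in both palbociclib lists. The DMSO summits lay 76 and 75 bp, and the palbociclib summits 62 and 87 bp, upstream of the canonical TSS, in an intron of a longer GINS2 transcript. The DMSO replicate 1 peak was weak, with a −log10 q of 2.09 and rank 898 of 996 in its list.

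The 2 genes nearest to GINS2 in fold enrichment over the 4 parental libraries, of 579 candidates, were CISD2 and UBE2D3, which share a single peak. That peak had fold enrichments of 4.03, 5.48, 18.0 and 15.2 in DMSO replicates 1 and 2 and palbociclib replicates 1 and 2. Its distance from GINS2 was 0.238 log2 units. This is a likeness over 4 libraries and carries no test.

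GINS1 and GINS3 had no peak in either DMSO library and narrower peaks under palbociclib than the other 2 GINS genes. GINS1 (ENSG00000101003.12, chromosome 20, 25391008 to 25452700, plus strand) had a peak at its canonical TSS with a fold enrichment of 10.6 and 10.3 in the palbociclib libraries. It was 239 and 230 bp wide, with summits 170 and 85 bp downstream. A further peak in both palbociclib libraries lay at a far upstream start of GINS1, with summits 16890 and 16847 bp from the canonical TSS. Its fold enrichment was 8.51 and 10.4. That peak was also within 30 bp of the start of ABHD12, a lipid hydrolase gene on the same chromosome. The mean used for GINS1, 10.5 ± 0.128, took the higher peak in each library, which was the canonical one in replicate 1 and the upstream one in replicate 2.

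GINS3 (ENSG00000181938.14, chromosome 16, 58295080 to 58406147, plus strand) had the lowest palbociclib mean of the 9, with 9.90 and 5.88 (7.89 ± 2.84). The replicates differed 1.68-fold, above the 90th percentile of 1.61 for all genes with both peaks. Its peaks were 343 and 391 bp wide, from 58392453 to 58392795 and from 58392461 to 58392851. The summits were 181 and 268 bp downstream of the canonical TSS, in a coding exon, yet within 46 bp of the start of another GINS3 transcript.

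CDC45, the single-chain subunit of the active helicase (ENSG00000093009.11, chromosome 22, 19479457 to 19520612, plus strand), had 11.5 and 6.38 under palbociclib (8.96 ± 3.65). The ratio of the replicates, 1.81, was the widest among the members. DMSO replicate 1 had no peak and DMSO replicate 2 had one of 5.89, so the palbociclib values were 1.96 and 1.08 times the single DMSO value. The DMSO peak was not at the CDC45 start: its summit lay 801 bp upstream of the canonical TSS and 25 bp from the TSS of UFD1, a ubiquitin-pathway gene. Under palbociclib a single peak of 1285 and 1362 bp covered both starts, from 19479034 to 19480318 and from 19478949 to 19480310. Its summits were 113 and 21 bp downstream of the CDC45 TSS. The ratios thus compare summits at different places.

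**Figure D2:**
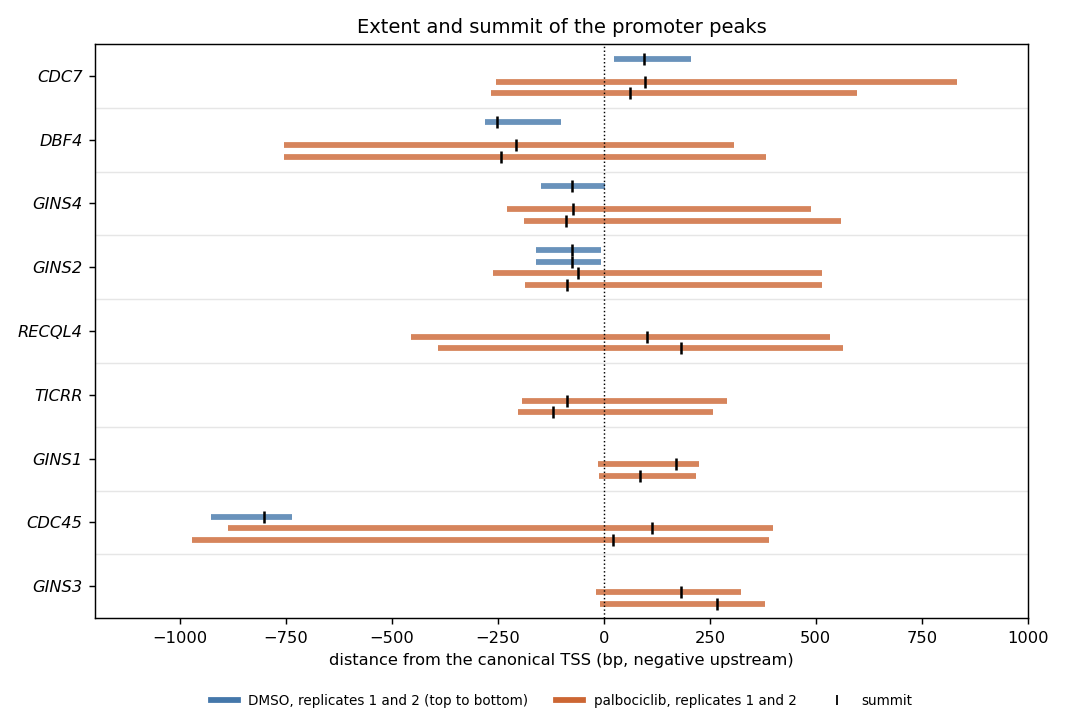
Extent (coloured bars) and summit (black ticks) of every called promoter peak within 2000 bp of the canonical TSS, in bp from that TSS along the gene; DMSO is blue, palbociclib orange, with replicate 1 above replicate 2. The palbociclib summits lie from 243 bp upstream to 268 bp downstream, and the CDC45 peak in DMSO lies 801 bp upstream; the far upstream GINS1 peak is off the axis.

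Of the loading factors, RECQL4, a RecQ-type helicase (ENSG00000160957.15, chromosome 8, 144511288 to 144517845, minus strand), had 15.5 and 13.7 under palbociclib (14.6 ± 1.29) and no DMSO peak. Its peaks were 989 and 956 bp wide, with summits 102 and 181 bp downstream of the canonical TSS. They also covered the promoter of the neighbouring gene LRRC14. TICRR (ENSG00000140534.14, chromosome 15, 89575469 to 89631056, plus strand) had 12.6 and 15.2 (13.9 ± 1.84), again with no DMSO peak. Its peaks were 485 and 460 bp wide, with summits 86 and 121 bp upstream of the TSS, and covered no other coding promoter. The CCAAT pair printed above lay within 100 bp of the TICRR start and inside both peaks.

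The order of the palbociclib means was CDC7, DBF4, GINS4, GINS2, RECQL4, TICRR, GINS1, CDC45 and GINS3. CDC7 stood clear of DBF4, whose replicates overlapped those of GINS4. GINS4 lay above GINS2 without overlap, while GINS2, RECQL4 and TICRR overlapped their neighbours. TICRR was clear of GINS1. The CDC45 replicates overlapped those of both GINS1 and GINS3, while GINS1 lay above GINS3 without overlap. Across the 9 members the higher palbociclib replicate was 1.02 to 1.81 times the lower, with a median of 1.17, against a median of 1.21 for all genes. The median palbociclib mean was 14.6 in the members and 8.36 over the 6972 genes. Of the 9, 8 were above that median (88.9%) and 3, CDC7, DBF4 and GINS4, ranked among the highest 697. Peak width had a median of 740 bp in the members and 552 bp in all genes, with 6 of 9 above that value.

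**Figure D3:**
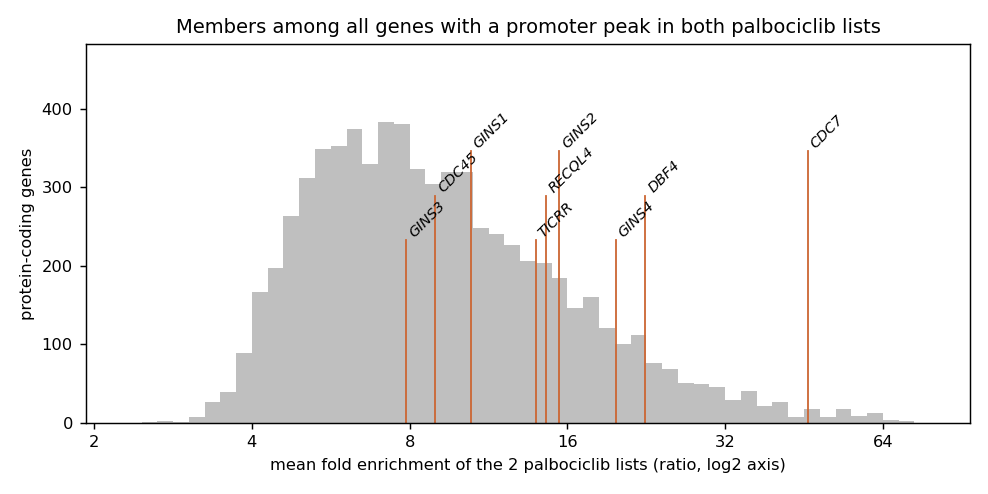
Histogram of the mean fold enrichment in the 2 palbociclib lists (ratio, log2 axis) over the 6972 protein-coding genes with a promoter peak in both, with the 9 members as orange lines. All members but GINS3 lie above the median of 8.36, and CDC7, at 46.0, lies in the far right tail.

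Fragments over the summit gave a different order from fold enrichment, since the local background differed between promoters. GINS4 had the most, with 95 fragments (95% exact Poisson interval 76.9 to 116) and 109 (89.5 to 131) under palbociclib, over a local background of 3.39 and 5.21. CDC7 had 70 (54.6 to 88.4) and 69 (53.7 to 87.3), over a background of 0.517 and 0.550. The high ratio of CDC7 thus came with the lower background of the pair. At DBF4 the counts were 50 in both palbociclib libraries (37.1 to 65.9), and at RECQL4 they were 52 (38.8 to 68.2) and 47 (34.5 to 62.5). GINS3 had the fewest, 14 (7.65 to 23.5) and 11 (5.49 to 19.7). Duplicates were kept by the authors, so these intervals cover counting error only.

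Set against DMSO, the fragment intervals did not overlap at 4 of the 5 members with a DMSO peak. The share of all genes with such a gap was not counted, so whether it is particular to the members is not known. In fold enrichment, a different measure, 100% of the 580 genes with a promoter peak in all 4 parental lists were higher in both palbociclib libraries. CDC7 had 10 fragments (4.80 to 18.4) in DMSO replicate 1, DBF4 11 (5.49 to 19.7) and GINS4 23 (14.6 to 34.5). GINS2 had 12 (6.20 to 21.0) and 15 (8.40 to 24.7) with DMSO, and 46 (33.7 to 61.4) and 42 (30.3 to 56.8) with palbociclib. CDC45 was the exception: its 11 fragments (5.49 to 19.7) in DMSO replicate 2 overlapped the 22 (13.8 to 33.3) of palbociclib replicate 2, though not the 31 (21.1 to 44.0) of replicate 1. Its DMSO summit lay 801 bp upstream, at the UFD1 start, so the CDC45 counts were taken at different places. These counts compare single libraries and are not scaled for depth.

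**Figure D4:**
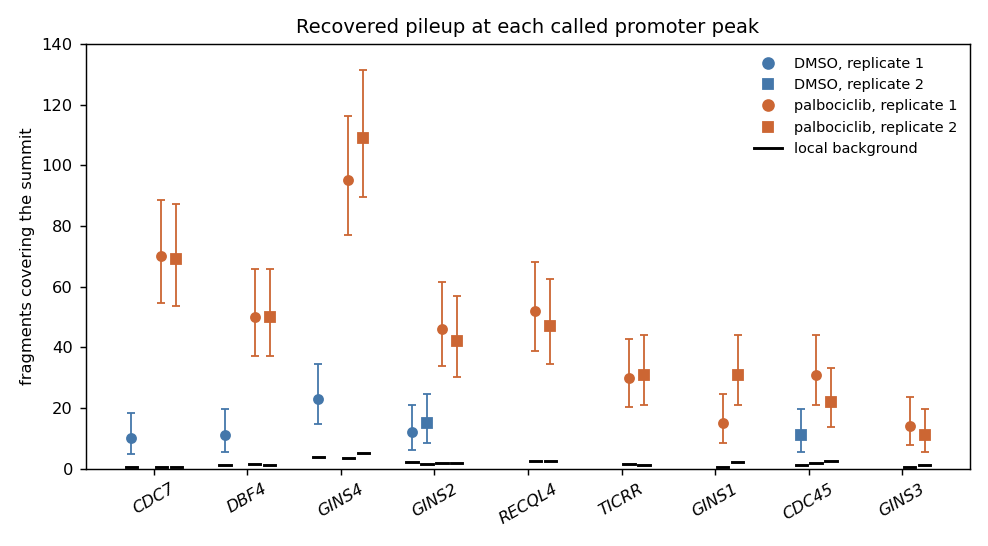
Fragments covering the summit of the highest promoter peak of each member (linear axis), with 95% exact Poisson intervals; black dashes mark the local background in fragments, and libraries with no peak have no point. GINS4 has the most fragments, 95 and 109 under palbociclib, and GINS3 the fewest; for GINS1 replicate 1 shows the canonical peak and replicate 2 the far upstream one.

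Summit positions were compared between the replicates for the members only, with no such gap computed over all genes. For the peak at the canonical TSS, the 2 palbociclib summits of a member were 16 to 92 bp apart, with a median of 35 bp. They lay upstream of the canonical TSS in 4 members (GINS2, GINS4, DBF4 and TICRR) and downstream in 5 (CDC45, GINS1, GINS3, CDC7 and RECQL4). Measured from the nearest start of any transcript of the gene, the DBF4 summits lay downstream. At GINS1, GINS3 and RECQL4 the side then differed between the replicates. Outside the promoters no peak was called within any of the 9 genes in any of the 7 lists.

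A wider list of 17 genes that act with these factors was counted in the same way: MCM2 to MCM7, MCM10, TOPBP1, MTBP, DONSON, WDHD1, DBF4B, RIF1 and the polymerase epsilon genes POLE, POLE2, POLE3 and POLE4. A peak in both palbociclib lists was found at 16, all but DBF4B, which encodes a second activator of CDC7 and had a peak of 5.06 in palbociclib replicate 2 only. In both DMSO lists a peak was called at 6 (MCM3, MCM4, MCM5, MCM7, WDHD1 and RIF1), compared with GINS2 alone among the 9. A further 5 had a peak in both palbociclib libraries and 1 DMSO library, and 5 in both palbociclib libraries and neither DMSO library. None had a peak in the RB1 KO or IgG2a lists. Their palbociclib means had a median of 13.5, from 4.95 at POLE2 to 55.3 at MCM5, a subunit of the MCM ring. Of the 16, 12 (75.0%) were above the median of all genes. The highest member, CDC7, lay below MCM5 and above the other 15, whose next value was 36.3 at MCM7. AP4M1 had the same mean and peak width as MCM7, so that value cannot be assigned to MCM7 alone. The difference between the lists was not tested.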

How the data were processed

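The 7 deposited files are peak lists, 1 per library. Per the study's methods, the authors aligned trimmed reads to hg38 (Bowtie2 2.3.4.1), discarded mitochondrial and blacklisted ones but not duplicates, and called peaks in each library with MACS2 2.2.7.1 (paired-end mode, q cutoff 0.05) against matched IgG controls. Replicates were not pooled. The control for the IgG2a list is not given in the sources used here. Each peak's fold enrichment is the authors' ratio of pileup to local background. The −log10 p and −log10 q are deposited by the authors, and the deposited score is a rescaled −log10 q and was read only to identify the column.

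Peaks on chromosomes 1 to 22 and X were matched to GENCODE 44 promoters by an overlap of at least 1 bp, and the peak of highest fold enrichment stood for a promoter. GINS2 was compared by exact permutation of libraries. Pileups were recovered by solving the Poisson p-value for the fragment number (largest misfit 0.0055 in −log10 p). Motif windows were read from the hg38 sequence. Python 3.11.15, numpy 2.4.6, scipy 1.17.1 and matplotlib 3.10.9 were used, and the code was tested on simulated data. All 9 members were named, with the highest and lowest of the wider list and genes sharing a peak. DBF4B, MCM7 and AP4M1 were added to these after their values were seen. Groups came from the sample titles. The members and gene lists were chosen with earlier results of these data known. Alternatives were peak thresholds, list length, promoter window, transcript choice, overlap, peak height, the replicate block and leaving out libraries. No counts per region were available, so no count test was run.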

Additional observations from a re-analysis of the deposited data

How the results depend on the processing

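The count of 9 members with a peak in both palbociclib lists was unchanged by a −log10 q of at least 5, a fold enrichment of at least 5, a window of 1000 bp upstream to 100 bp downstream, protein-coding or canonical transcripts only, half-peak overlap or leaving out any library; with lists of equal length (816 peaks) it was 3. The count of 1 member in both DMSO lists became 0 at a −log10 q of at least 5, at a fold enrichment of at least 5 and with equal lists, and ranged from 1 to 4 when 1 library was left out. The count of 4 gained members became 0 with equal lists, 6 at the −log10 q limit and 5 at the fold limit, and ranged from 4 to 7 when 1 library was left out. A common p cutoff for the 4 parental lists (−log10 p of 5.33), added after the data had been seen, gave 9, 1 and 4. Shares of all genes were not counted under these alternatives. The GINS2 difference ranged from 1.34 to 1.94 (log2) and from 548 to 622 bp when 1 library was left out, and was 1.67 with recovered pileup. With a replicate block it stayed at 1.64 and 585 bp (exact sign-flip p = 0.5, the smallest possible with 2 pairs). Replicate numbers carried no clear shared shift: the differences between replicates correlated at 0.055 over 450 promoter peaks. Whether the libraries were handled in pairs cannot be told from this, and the labels do not say. The width at a fold enrichment of at least 5 could not be given, since the DMSO replicate 1 peak falls below it. The DMSO peaks of the members held 10 to 23 fragments, where the smallest pileup called was 6, and the GINS2 peak of DMSO replicate 1 had the lowest −log10 q of them, 2.09.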
